A study of Mus musculus with 8 samples.

Results

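Interferon-stimulated genes were followed as a group of 58 genes, of which 57 had a row among the 12160 genes of the count table and Herc6 was not analysed here. The genes were chosen by name with earlier results of these data known, so their shares beside all genes are descriptions. The genes were measured by 3′ RNA sequencing in immortalized mouse pancreatic stellate cells (PSCs), the fibroblast-like cells from which part of the pancreatic tumor stroma arises. The PSCs were kept in Matrigel domes with growth medium (4 days). That medium was then exchanged (4 more days) for medium from KPC organoids, lines that came from primary mouse pancreatic tumors. The organoids carried an shRNA against Brca2 (shBrca2-CM, n = 3) or a non-targeting shRNA (shControl-CM, n = 3), and control PSCs received medium that the treatment label calls PSC own conditioned medium and the sample titles call DMEM (control, n = 2). No genotype, age or further agent is given for these groups. The model is a knockdown of Brca2 by lentiviral shRNA in the cancer cells, while the PSCs themselves were not altered and are an immortalized line. The study describes the samples as independent culture domes, so p-values measure the spread between domes of that line. They do not cover variation between animals, lines or shRNAs. Whether the domes of a group shared a batch of conditioned medium is not stated. If they did, a batch difference could not be told apart from the shRNA.

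Interferons bind receptors that act through the JAK kinases, and a complex that holds STAT2 and IRF9 then binds the interferon-stimulated response element (ISRE) in the promoters of its targets. Interferon-gamma acts mainly through another element, the gamma-activated site (GAS). The induced proteins include cytosolic sensors of foreign nucleic acid, more STAT and IRF factors that feed the response, and effectors that block viral entry, translation and budding. In fibroblasts many of these genes also have a basal level without added interferon.

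The promoters of several members are shown first because the ISRE is the feature by which these genes are usually recognized. The ISRE stretches were picked from members called higher with shBrca2-CM than with shControl-CM, by the thresholds given below. A promoter window from 250 bases before to 50 bases after the annotated RefSeq start (GRCm38.p6, the assembly behind mm10) was at hand for 44 of the 57 members. The ISRE core searched for was GAAANNGAAA and the GAS core was TTCNNNGAA, each on both strands, with overlapping matches allowed. In the stretches below, written 5′ to 3′ on the strand of the gene, capitals mark the ISRE core, or its reverse complement, and in Irf1 the GAS core.
Ifit1, chr19:34640760-34640838, plus strand: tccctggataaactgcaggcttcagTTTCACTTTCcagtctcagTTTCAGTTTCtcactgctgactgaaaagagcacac
Ifit3, chr19:34583348-34583441, plus strand: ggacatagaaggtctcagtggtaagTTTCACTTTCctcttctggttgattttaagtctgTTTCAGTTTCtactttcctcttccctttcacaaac
Isg15, chr4:156200850-156200921, minus strand: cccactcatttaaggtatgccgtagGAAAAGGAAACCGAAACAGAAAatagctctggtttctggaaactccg
Bst2, chr8:71537562-71537627, minus strand: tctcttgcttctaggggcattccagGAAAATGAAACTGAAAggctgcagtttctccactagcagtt
Gbp3, chr3:142559974-142560039, plus strand: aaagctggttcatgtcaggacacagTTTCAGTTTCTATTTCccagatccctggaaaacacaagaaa
Irgm1, chr11:48871421-48871475, minus strand: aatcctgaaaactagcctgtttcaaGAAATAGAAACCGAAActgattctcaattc
Oas3, chr5:120777700-120777759, minus strand: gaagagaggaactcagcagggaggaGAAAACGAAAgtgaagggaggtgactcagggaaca
Stat2, chr10:128270251-128270310, plus strand: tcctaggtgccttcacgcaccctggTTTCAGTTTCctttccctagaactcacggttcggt
Rsad2, chr12:26456538-26456597, minus strand: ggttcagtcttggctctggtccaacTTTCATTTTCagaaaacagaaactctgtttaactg
Irf1, chr11:53769899-53769957, plus strand: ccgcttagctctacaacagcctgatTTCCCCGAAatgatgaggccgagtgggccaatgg

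Only cores upstream of the annotated start were taken for these stretches, so each stretch lies there by choice. Isg15 carries 3 overlapping ISRE cores and Ifit1 carries 2 separate cores, whereas Stat2, Oas3 and Rsad2 carry a single core. The stretch of Ifit3 is identical to that of its neighbor Ifit3b over all 94 bases, so the pair is close to a duplicate at the promoter. An ISRE core was found in 22 of the 44 member windows, against 1079 of the 27025 gene windows in the table (3.99%). A GAS core was found in 12 of 44 member windows (27.3%), against 9.55% of all windows. By class, the ISRE core was found in 5 of 5 GTPase windows, 7 of 12 antiviral effectors, 5 of 9 sensors, 3 of 6 genes of the ISG15, ubiquitin and ADP-ribose class, 1 of 4 STAT and IRF factors and 1 of 8 other induced genes. Among the STAT and IRF factors only Stat2 held an ISRE core, so Irf7 held none in this window. A match is a description of the letters in this window and was not tested as a binding site.

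The libraries differed in depth, with 655996 to 1095534 counts in shBrca2-CM, 1093609 to 1624392 in shControl-CM, and 5476988 and 4623846 in the control. A count of 3 in a library, the upper limit that a count of 0 allows, corresponded to 2.66 to 4.34 CPM (counts scaled to a common library size) in shBrca2-CM, 1.92 to 2.90 CPM in shControl-CM and 0.521 to 0.645 CPM in the control. These limits cover counting error only. The CPM use factors from the trimmed mean of M values (TMM), and differences are log2 fold changes ± standard error from edgeR's quasi-likelihood test with Benjamini-Hochberg adjustment over all genes tested. A gene was called when its adjusted p was under 0.1, its log2 fold change was beyond 0.5 in either direction and its mean normalized count exceeded 5. Members took 1.44 to 1.58% of all counts in shBrca2-CM, 0.990 to 1.13% in shControl-CM, and 1.29 and 1.57% in the control. The 10 listed stellate and fibroblast markers were all measured, with a summed level of 3120 to 3291 CPM in shBrca2-CM, 3912 to 4524 CPM in shControl-CM and 5428 and 6489 CPM in the control. This sum hides members that went opposite ways, with 3 called higher and 4 lower than control with shControl-CM (18.2% and 18.9% of all genes were), and 4 higher and 4 lower with shBrca2-CM (18.6% and 19.2% of all genes). Vim was lower than control with both media (-3.38 ± 0.25 and -2.68 ± 0.15), while Dcn (4.50 ± 0.21 and 3.56 ± 0.17) and Thy1 (1.84 ± 0.23 and 1.49 ± 0.15) were higher. Between the media, Pdgfra was called higher with shBrca2-CM (0.85 ± 0.20) and Dcn and Lum lower (-0.93 ± 0.14 and -1.59 ± 0.42). The epithelial markers analysed (Krt18, Krt19 and Muc1, 3 of 8 listed) summed to 59.3 to 94.1 CPM in shBrca2-CM, 57.7 to 70.6 CPM in shControl-CM and 41.7 and 37.0 CPM in the control. Of these, Krt19 was called higher with shBrca2-CM than with shControl-CM (2.12 ± 0.52, adjusted p = 0.0632) at 5.79, 16.2 and 13.3 and 2.56, 3.87 and 2.04 CPM, below the 24.3 and 25.4 CPM of the control. Krt18 and Muc1 were called above the control with shControl-CM (2.43 ± 0.53 and 1.97 ± 0.27) and with shBrca2-CM (2.66 ± 0.42 and 2.08 ± 0.24), and neither was called between the media. The macrophage and leukocyte markers analysed (Cd68, Csf1r, Lyz2 and Cd14, 4 of 8 listed) summed to 102 to 155 CPM, 138 to 266 CPM, and 63.4 and 43.6 CPM in the same order, and most of that was Cd14. Against the control, Cd68, Csf1r and Cd14 were called higher with shControl-CM (adjusted p = 0.00187, 0.00674 and 0.00177; 2.09 ± 0.45 for Csf1r and 2.04 ± 0.34 for Cd14 on the log2 scale), and Cd68 and Cd14 with shBrca2-CM (1.69 ± 0.38 and 1.36 ± 0.18). None of these markers was called between the media, but Csf1r did not overlap, at 0, 1.24 and 3.55 CPM with shBrca2-CM and 7.05, 7.73 and 13.6 CPM with shControl-CM (-2.26 ± 0.67, adjusted p = 0.134). The endothelial markers Kdr and Tek, 2 of 4 listed, reached at most 3.48 CPM in sum. Epcam, Cdh1 and Ptprc, which define epithelial cells and leukocytes, were not analysed here, and the part of these cells in the results was not tested. In bulk libraries fewer cells of a type and less RNA per cell cannot be told apart.

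The comparison of shBrca2-CM with shControl-CM asks whether silencing Brca2 in the cancer cells changes what their medium does to interferon-stimulated genes of PSCs. Of the 57 members, 20 were higher with shBrca2-CM and 0 were lower, against 1.58% of 11035 tested genes called higher and 1.55% called lower. At an unadjusted p under 0.05 there were 31 members higher and 1 lower, against 6.71% and 6.68% of all genes. The likelihood ratio test of DESeq2 called 16 members higher and 0 lower, against 1.16% and 1.40% of all genes. The log2 fold change was above 0 for 51 of 57 members, with a median of 0.61 against 0.03 over all genes tested. For 30 members every shBrca2-CM library was above every shControl-CM library, where 9.14% of all genes showed this, and for 1 member, Ifitm2, every shBrca2-CM library was below, where 10.6% of all genes did. The called members were 5 of 12 sensors, 2 of 4 STAT and IRF factors, 3 of 8 GTPases, 8 of 14 antiviral effectors, 1 of 9 genes of the ISG15, ubiquitin and ADP-ribose class, and 1 of 10 other induced genes. The median log2 fold change was 0.61 for sensors, 0.46 for STAT and IRF factors, 1.13 for GTPases, 0.75 for effectors, 0.35 for the ISG15 class and 0.40 for the other genes. The differences between classes were not tested. The members were chosen with earlier results of these data known, so these shares describe the list and test nothing.

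The count of 20 depended on single libraries. It was 6 without shBrca2-CM replicate 1, 5 without shBrca2-CM replicate 2, 12 without shBrca2-CM replicate 3 and 6 without shControl-CM replicate 2, while it was 25 (24 higher and 1 lower) without shControl-CM replicate 1 and 22 without shControl-CM replicate 3. Calls over all genes moved from 345 to between 128 and 976 in the same fits. All 20 members kept a positive log2 fold change in each of these fits, and 5 of them, Oas2, Irf7, Stat2, Zbp1 and Ifit3, were called in all 6. Ifit3b lost its call without shBrca2-CM replicate 2, and the other 14 lost it in each of the 3 fits without shBrca2-CM replicate 1, shBrca2-CM replicate 2 or shControl-CM replicate 2. Of these 14, Adar, Cmpk2, Gbp3, Ifit1, Irgm1, Oasl2, Rsad2 and Rtp4 also lost it without shBrca2-CM replicate 3, and Cmpk2 without shControl-CM replicate 3. The 16 calls of DESeq2 were all among the 20 and left out Gbp3, Oas3, Rsad2 and Cmpk2.

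**Figure D1:**
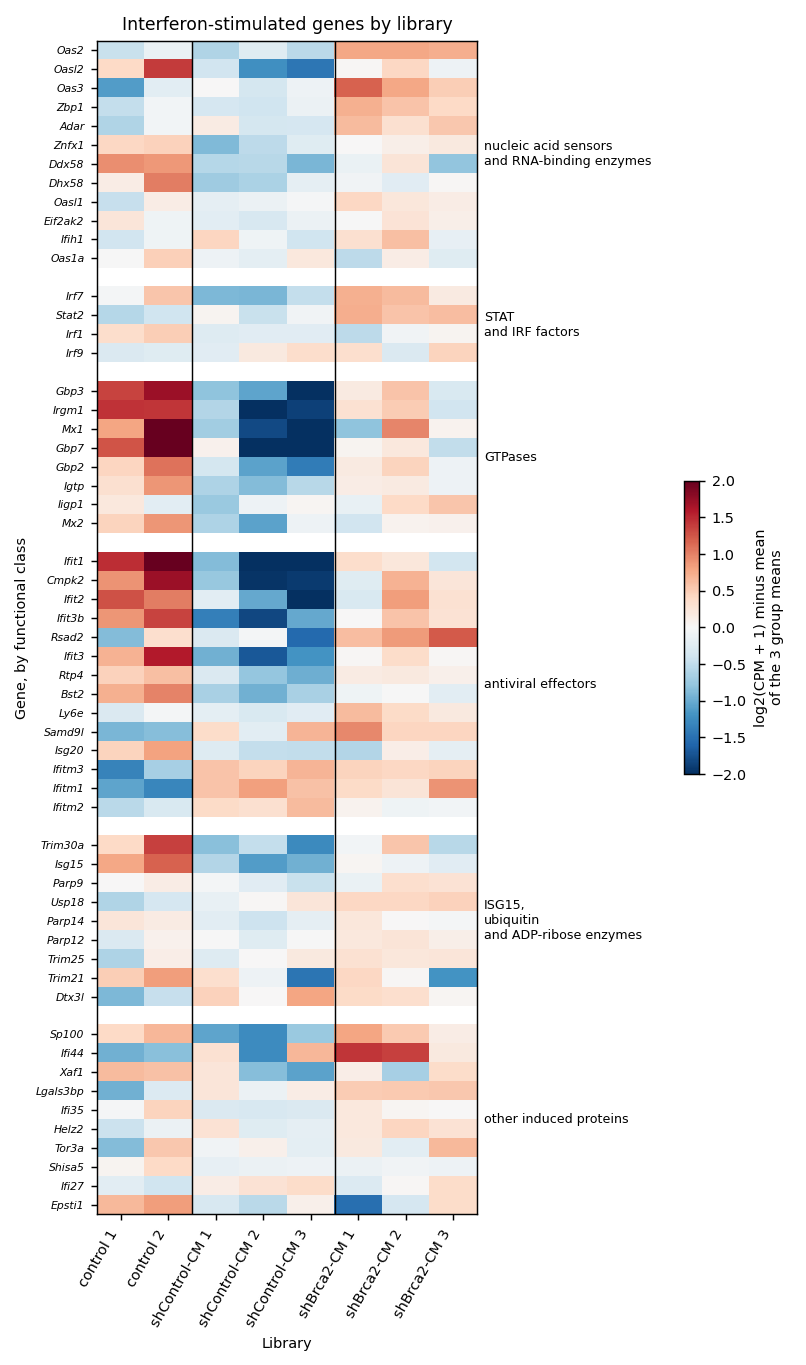
Level of each of the 57 members (rows, by functional class, ordered within a class by the difference of shBrca2-CM and shControl-CM) in each of the 8 libraries (columns), as log2(CPM + 1) minus the mean of the 3 group means, with the color scale ending at -2 and 2. The shControl-CM columns are the lowest for most GTPases and IFIT genes, the control columns are the highest for most of them, and in the Ifitm rows the control columns are the lowest.

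Against the control, the members split. The 2 comparisons with the control share its 2 libraries. With shControl-CM, 9 members were higher and 26 were lower than in the control, against 18.2% of 12086 tested genes called higher and 18.9% called lower. With shBrca2-CM, 15 were higher and 21 were lower, against 18.6% and 19.2% of 12049 genes. The median log2 fold change of the members was -0.48 for shControl-CM (all genes -0.10) and -0.14 for shBrca2-CM (all genes -0.05). The control libraries were not alike for these genes, since control replicate 2 was above control replicate 1 for 48 of 57 members (84.2%, against 49.2% of all genes). Without control replicate 2 the shBrca2-CM comparison gave 22 higher and 11 lower calls, and without control replicate 1 it gave 12 higher and 22 lower. For shControl-CM the calls were 4 higher and 20 lower without control replicate 2, and 4 higher and 24 lower without control replicate 1, with a median of -0.72. Of the 35 shControl-CM calls, 22 were kept with each library left out in turn. Without control replicate 2 the calls of Dhx58, Mx2, Gbp7, Trim30a, Ifi27, Ifi35, Ifi44, Samd9l, Dtx3l, Usp18 and Epsti1 were lost, without control replicate 1 those of Ifit2, Lgals3bp, Ifi44, Samd9l, Dtx3l, Usp18 and Epsti1, and single shControl-CM libraries decided Ifi35, Usp18 and Epsti1. Of the 36 shBrca2-CM calls, 23 were kept. Those of Cmpk2, Dhx58, Gbp2, Igtp, Irf1, Mx1, Mx2, Oasl2, Trim21 and Trim30a were lost without control replicate 2, those of Dtx3l, Helz2 and Ly6e without control replicate 1, those of Dtx3l, Irf1, Ly6e and Trim30a without shBrca2-CM replicate 1, and those of Gbp2, Igtp, Trim21 and Trim30a without shBrca2-CM replicate 3. DESeq2 did not call Epsti1, Gbp7 and Ifi44 for shControl-CM, nor Dtx3l, Trim21 and Trim30a for shBrca2-CM. With total counts as the scale the calls of Ifi27, Ifi44 and Usp18 for shControl-CM and of Trim30a for shBrca2-CM were lost. After thinning all libraries to an equal total those of Epsti1, Gbp7, Ifi44, Samd9l and Trim30a for shControl-CM, and of Dtx3l, Gbp2, Irf1, Trim21 and Trim30a for shBrca2-CM, were lost.

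Over the 3 comparisons together the members fell into a few patterns of calls, given here beside the share of the 11000 genes tested in all 3 that had the same pattern. In 10 members the level was lower than control with both media and higher with shBrca2-CM than with shControl-CM (Ifit1, Ifit3, Ifit3b, Isg15, Bst2, Gbp3, Igtp, Irgm1, Oasl2 and Cmpk2), or 17.5% of members against 0.509% of genes. Their shControl-CM means were 8 to 40.1% of the control mean and their shBrca2-CM means 29.3 to 68.2%. In 3 members (Irf7, Rtp4 and Sp100) only the shControl-CM level was called lower than control, at 32.5 to 48.7% of its mean, and the shBrca2-CM level, at 77.0 to 118%, was not called, a pattern of 5.26% of members and 0.382% of genes. In 7 members (Oas2, Oas3, Zbp1, Adar, Stat2, Rsad2 and Ly6e) the shBrca2-CM level was called above both other groups, at 149 to 283% of the control mean, and shControl-CM, at 76.8 to 139%, was not called against the control, a pattern of 12.3% of members and 0.327% of genes. In 7 others (Ifitm1, Ifitm3, Samd9l, Usp18, Dtx3l, Ifi44 and Lgals3bp) both media were called above the control and their difference was not called (12.3% of members, 13.7% of genes). In 10 members (Ddx58, Dhx58, Irf1, Mx1, Mx2, Gbp2, Gbp7, Ifit2, Isg20 and Trim30a) both media were called below the control and their difference was not called (17.5% of members, 14.4% of genes). The shares of these last patterns were near those of all genes, and 13 members were called in none of the comparisons (22.8%, against 48.9% of genes). The patterns with a call between the media hold the 20 members called there. Their shares mostly restate that count, since 1.58% of all genes were called higher there. Each group enters more than 1 comparison, so the calls of a pattern are not independent.

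**Figure D2:**
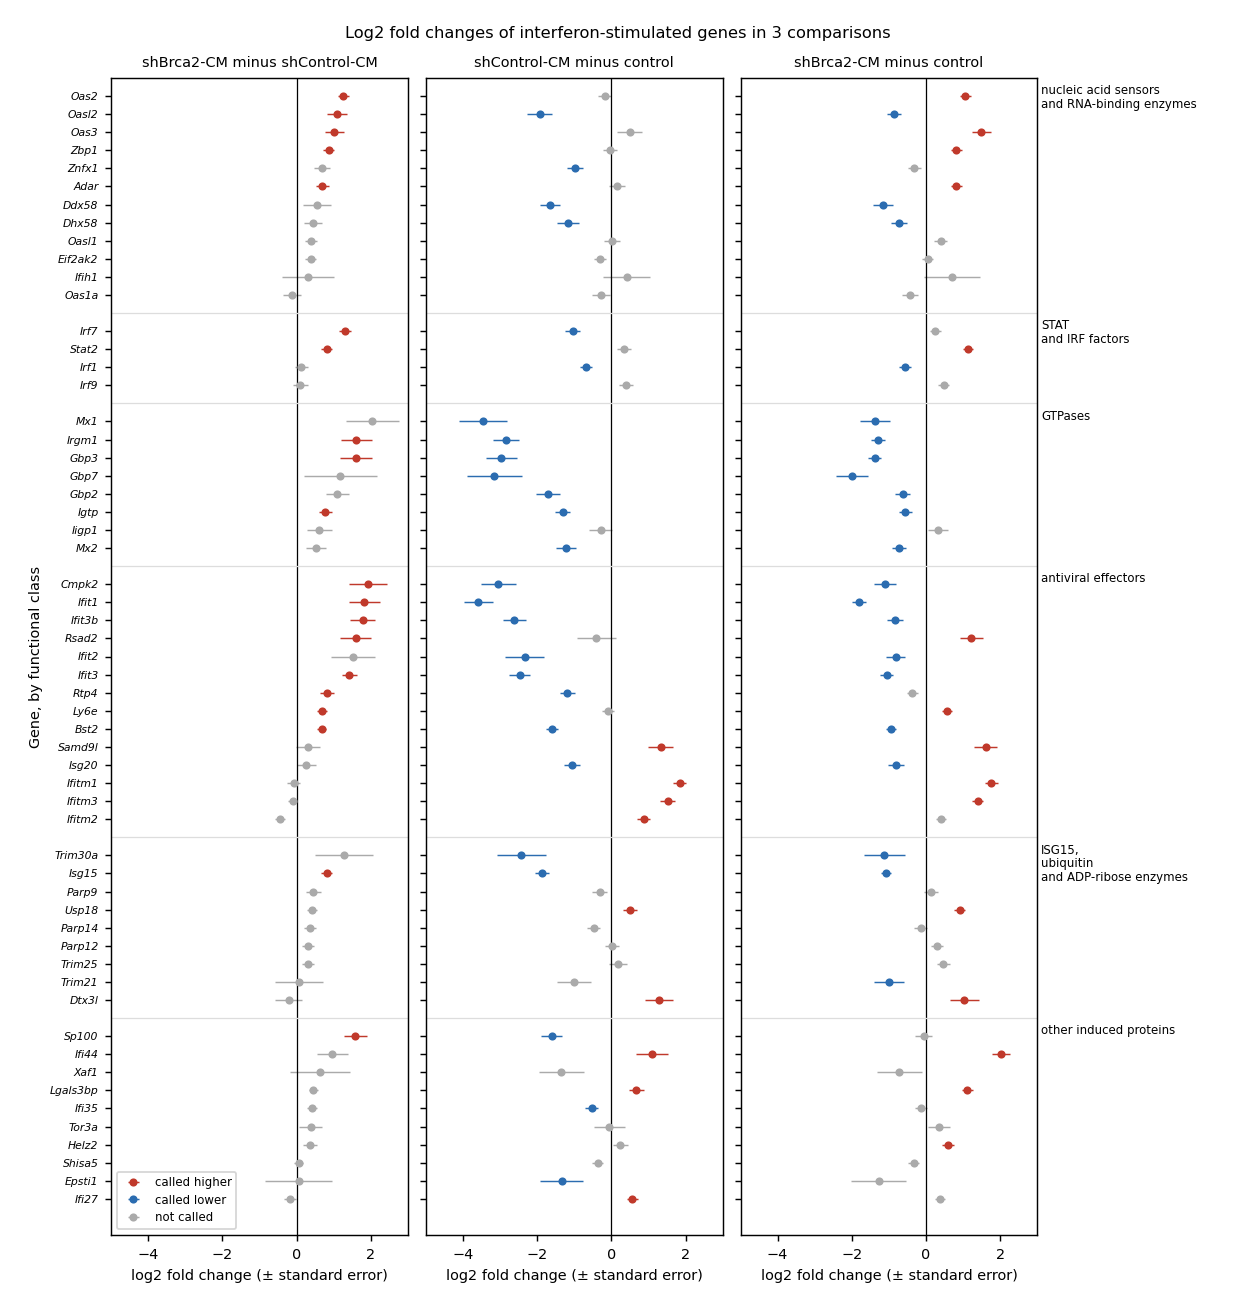
Log2 fold change ± standard error of each member (rows, by class) for shBrca2-CM minus shControl-CM, shControl-CM minus control and shBrca2-CM minus control (panels), with called genes in red (higher) or blue (lower) and other genes in grey. In the left panel the 20 called members all lie to the right of 0, whereas the other panels hold called members on both sides.

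Among the sensors, Oas2 and Oas3, which make the 2′-5′-linked oligoadenylate that activates RNase L, were higher with shBrca2-CM than in either other group. Oas2 was 229, 228 and 220.1 CPM in the 3 shBrca2-CM libraries, 87.1, 112 and 91 CPM with shControl-CM and 97.1 and 121 CPM in the control. The shBrca2-CM libraries lay above all the others, and the log2 difference was 1.25 ± 0.15 from shControl-CM (adjusted p = 0.00068) and 1.05 ± 0.15 from the control (adjusted p = 5.45e-08). Oas3 was 57.9, 43.6 and 35.5 CPM with shBrca2-CM, 25, 19.3 and 23.1 CPM with shControl-CM and 10.9 and 21.3 CPM in the control, again without overlap of shBrca2-CM and shControl-CM (log2 difference 1.01 ± 0.25, adjusted p = 0.0706). Oasl2, another gene of the family, had another order. It was 95.5, 126 and 87.9 CPM with shBrca2-CM, 71.8, 39.6 and 34 CPM with shControl-CM, and 124 and 250.2 CPM in the control. The log2 difference was 1.09 ± 0.27 between the media (adjusted p = 0.0631) and -1.93 ± 0.34 for shControl-CM against the control (adjusted p = 0.0025). Members of the Oas and Oasl family resemble each other, so reads may be shared among them.

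Zbp1, a sensor of Z-form nucleic acid that can start necroptosis, and Adar, which edits adenosine to inosine in double-stranded RNA and limits its sensing, were also higher with shBrca2-CM than in either other group. Zbp1 was 244, 222 and 196 CPM with shBrca2-CM, 118, 113 and 137 CPM with shControl-CM and 107 and 144 CPM in the control (shBrca2-CM minus shControl-CM 0.87 ± 0.15, adjusted p = 0.00826). Adar was 198, 159 and 186 CPM, 143, 99.5 and 101 CPM and 83.9 and 122 CPM in the same order, and its difference of 0.68 ± 0.18 (adjusted p = 0.0774) was close to the threshold. The shBrca2-CM libraries lay above the 5 others for both genes. The helicases that sense viral RNA in the cytosol differed from these. Ddx58, which encodes RIG-I, was 15.9, 21.2 and 9.76 CPM with shBrca2-CM and 11.5, 11.6 and 8.83 CPM with shControl-CM, which overlapped, against 34.4 and 32.7 CPM in the control. It was called lower than control, at -1.67 ± 0.27 with shControl-CM (adjusted p = 0.00152) and -1.16 ± 0.27 with shBrca2-CM (adjusted p = 0.000344) on the log2 scale. Dhx58, the RIG-I-like regulator LGP2, had the same calls, while Ifih1, which encodes MDA5, had at most 9 counts in any library and none of its comparisons was called. Eif2ak2, the RNA-activated kinase PKR, Oas1a and Oasl1 were not called in any comparison, and Znfx1 was called lower only in shControl-CM against the control.

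The STAT and IRF factors are the transcription factors through which interferon and the nucleic acid sensors act. Irf7, the factor that amplifies type I interferon expression, was 904, 851 and 622 CPM with shBrca2-CM, 294, 291 and 393 CPM with shControl-CM and 535 and 803 CPM in the control. All shBrca2-CM libraries lay above all shControl-CM libraries, with a log2 difference of 1.30 ± 0.17 (adjusted p = 0.00144). Against the control, shControl-CM differed by -1.04 ± 0.20 (adjusted p = 0.00407) and shBrca2-CM by 0.24 ± 0.15 (adjusted p = 0.195), which was not called. Stat2, a component of the ISRE-binding complex, was 544, 485 and 503 CPM with shBrca2-CM, 341, 239 and 310.4 CPM with shControl-CM and 220.0 and 248 CPM in the control. It was higher with shBrca2-CM than with shControl-CM by 0.81 ± 0.15 (adjusted p = 0.012) and than in the control by 1.13 ± 0.14 (adjusted p = 1.84e-09). Irf1, whose promoter holds the GAS core shown above, was 68, 93.3 and 101 CPM with shBrca2-CM, 81.4, 83.1 and 83.5 CPM with shControl-CM and 125 and 138 CPM in the control. Both media were called below the control for Irf1 (-0.67 ± 0.16 and -0.56 ± 0.16 on the log2 scale), and the media overlapped. Irf9, the DNA-binding part of the ISRE complex, was not called in any comparison, with differences of 0.10 ± 0.20 between the media, 0.39 ± 0.19 for shControl-CM and 0.48 ± 0.16 for shBrca2-CM against the control.

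The GTPases, which attack membranes around intracellular pathogens or trap viral particles, had the lowest class medians relative to control. For 7 of 8, all but Iigp1, both media were called below the control (18.9% of all genes were with shControl-CM and 19.2% with shBrca2-CM), with class medians of -2.28 for shControl-CM and -1.01 for shBrca2-CM on the log2 scale, and all 8 had a positive log2 fold change between shBrca2-CM and shControl-CM. Gbp3, a guanylate-binding protein, was 98.4, 129 and 70.1 CPM with shBrca2-CM, 49.3, 41.6 and 8.83 CPM with shControl-CM and 225 and 287 CPM in the control. Irgm1, a regulator of the immunity-related GTPases, was 46.3, 53.5 and 28.4 CPM, 24.3, 6.76 and 9.51 CPM and 103 and 101 CPM in the same order. For both genes the 3 groups were separate. Gbp3 differed by 1.60 ± 0.43 between the media (adjusted p = 0.0879) and by -2.96 ± 0.43 for shControl-CM against the control (adjusted p = 0.00078), and Irgm1 by 1.60 ± 0.42 (adjusted p = 0.0802) and -2.85 ± 0.35 (adjusted p = 0.000319). The shControl-CM libraries were spread for both genes, with Gbp3 lowest in replicate 3 and Irgm1 highest in replicate 1.

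Igtp, another immunity-related GTPase, was 98.4, 101 and 82.6 CPM with shBrca2-CM, 57.7, 48.3 and 59.8 CPM with shControl-CM and 111 and 165 CPM in the control, with a difference of 0.78 ± 0.17 between the media (adjusted p = 0.0382). Gbp2 was 40.5, 48.5 and 32.8 CPM, 27.6, 16.4 and 12.9 CPM and 48.3 and 76.7 CPM in the same order. Its media did not overlap, but the difference of 1.09 ± 0.31 was not called (adjusted p = 0.117). Mx1, the GTPase that traps viral nucleocapsids, was 2.89, 12.4 and 6.21 CPM with shBrca2-CM and 3.20, 0.966 and 0.679 CPM with shControl-CM, which overlapped, against 10.8 and 27.7 CPM in the control. The shBrca2-CM values rested on 2, 10 and 7 counts and the shControl-CM values on 5, 1 and 1 counts. Both media were called below the control for Mx1, at -3.45 ± 0.64 and -1.38 ± 0.40 on the log2 scale, and the difference between the media, 2.04 ± 0.72, was not called (adjusted p = 0.214). Gbp7 was 4.34, 4.98 and 2.66 CPM with shBrca2-CM, from 3, 4 and 3 counts, 4.48, 0 and 0 CPM with shControl-CM, from 7, 0 and 0 counts, and 11.3 and 19.8 CPM in the control, so a difference between the media was not detectable at this depth. The guanylate-binding proteins are a family of similar genes, and reads may be shared among them.

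**Figure D3:**
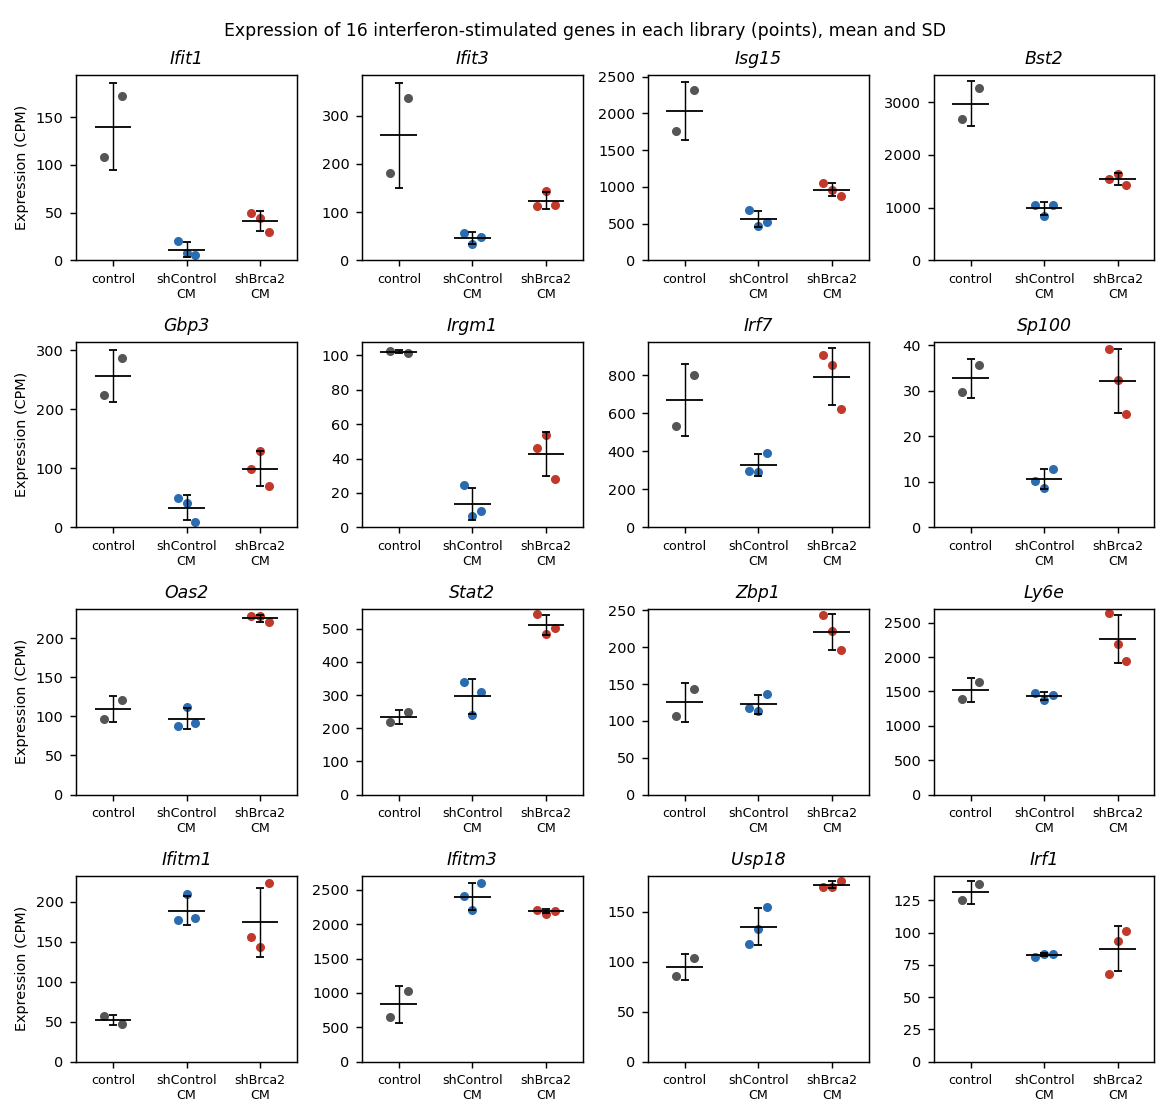
TMM-scaled CPM of 16 members (panels) in each library (points) of the control (grey, n = 2), shControl-CM (blue, n = 3) and shBrca2-CM (red, n = 3), with the mean (horizontal bar) and SD (vertical bar), each vertical axis starting at 0. In the panels of Ifit1, Ifit3, Isg15, Bst2, Gbp3 and Irgm1 the 3 shBrca2-CM points lie between the shControl-CM and control points, whereas for Oas2, Stat2, Zbp1 and Ly6e they lie above all other points.

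Of the 14 antiviral effectors, 4 were called higher and 8 lower than control with shControl-CM (28.6% and 57.1%, against 18.2% and 18.9% of all genes), and 5 higher and 7 lower with shBrca2-CM (35.7% and 50%, against 18.6% and 19.2%). In a class of this size the counts called higher are near the background. The IFIT proteins bind foreign RNA caps and limit translation. Ifit1 was 49.2, 44.8 and 29.3 CPM with shBrca2-CM, 20.5, 7.73 and 5.43 CPM with shControl-CM and 108 and 172 CPM in the control. The 3 groups were separate, with shControl-CM at 8% and shBrca2-CM at 29.3% of the control mean. The log2 difference was 1.83 ± 0.42 between the media (adjusted p = 0.0513), -3.59 ± 0.39 for shControl-CM (adjusted p = 0.000162) and -1.81 ± 0.20 for shBrca2-CM against the control (adjusted p = 3.06e-11). Ifit3 was 113, 144 and 114 CPM with shBrca2-CM, 57, 33.8 and 48.2 CPM with shControl-CM and 182 and 337 CPM in the control (1.42 ± 0.20 between the media, adjusted p = 0.0027). Ifit3b was 23.1, 34.8 and 28.4 CPM, 8.33, 5.80 and 10.9 CPM and 43.4 and 60.8 CPM in the same order (1.78 ± 0.33 between the media, adjusted p = 0.0136). Ifit3 and Ifit3b are near-identical copies, so how their reads were split is uncertain and they are not independent. Ifit2 was called below the control with both media (-2.33 ± 0.52 and -0.82 ± 0.27), and its difference between the media was not called (1.52 ± 0.60, adjusted p = 0.288).

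Bst2, or tetherin, holds budding virions at the cell surface, and Rtp4 is an interferon-induced chaperone that also restricts some viruses. Bst2 was 1549, 1639 and 1418 CPM with shBrca2-CM, 1051, 843 and 1050.0 CPM with shControl-CM and 2673 and 3271 CPM in the control. The groups were separate, with a difference of 0.67 ± 0.13 between the media (adjusted p = 0.0163) and of -1.61 ± 0.17 and -0.95 ± 0.13 for the media against the control. Rtp4 was 155, 158 and 149 CPM, 113, 80.2 and 70.0 CPM and 191 and 209 CPM in the same order (0.83 ± 0.19 between the media, adjusted p = 0.0417). Cmpk2, a mitochondrial nucleotide kinase that neighbors Rsad2 in the genome, was 8.68, 17.4 and 12.4 CPM with shBrca2-CM, 5.77, 1.93 and 2.04 CPM with shControl-CM, from 9, 2 and 3 counts, and 20.3 and 36.5 CPM in the control. Its difference of 1.92 ± 0.51 between the media (adjusted p = 0.0904) was close to the threshold.

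Rsad2 and Ly6e did not share the low level relative to control. Rsad2, or viperin, an enzyme that makes a chain-terminating nucleotide, was 18.8, 22.4 and 29.3 CPM with shBrca2-CM, 9.61, 11.6 and 3.40 CPM with shControl-CM and 6.08 and 15.3 CPM in the control. It was higher with shBrca2-CM than with shControl-CM by 1.59 ± 0.41 (adjusted p = 0.08) and than in the control by 1.21 ± 0.31 (adjusted p = 0.0012). Ly6e, a surface protein that hinders the fusion of coronaviruses, was 2637, 2196 and 1943 CPM, 1482, 1371 and 1442 CPM and 1393 and 1644 CPM in the same order, with differences of 0.68 ± 0.13 (adjusted p = 0.0189) and 0.58 ± 0.14 (adjusted p = 0.000445). For Ly6e the shBrca2-CM libraries lay above all 5 others.

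The IFITM proteins, which block viral fusion with endosomal membranes, were higher than control and did not follow the difference between the media. Ifitm1 was 156, 143 and 224 CPM with shBrca2-CM, 177, 209.7 and 180.0 CPM with shControl-CM and 56.7 and 47.7 CPM in the control. The media overlapped (-0.08 ± 0.17, adjusted p = 0.902) and each was called above the control, by 1.84 ± 0.18 for shControl-CM (adjusted p = 8.42e-05) and 1.76 ± 0.17 for shBrca2-CM (adjusted p = 4.29e-13). Ifitm3 had the same calls, with differences of 1.52 ± 0.21 and 1.39 ± 0.15 from the control and -0.11 ± 0.11 between the media. Ifitm2 was called above the control with shControl-CM only (0.87 ± 0.16, against 0.40 ± 0.14 with shBrca2-CM), and its difference between the media, -0.45 ± 0.13, was not called (adjusted p = 0.111). Samd9l, which restrains translation, was called above the control with both media (1.34 ± 0.34 and 1.61 ± 0.31), and Isg20, an RNA exonuclease, was called below it with both (-1.06 ± 0.22 and -0.81 ± 0.21). The IFITM genes are similar in sequence, and reads may be shared among them.

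In the class of ISG15, ubiquitin and ADP-ribose enzymes, Isg15 was the only member called between the media. Isg15, the ubiquitin-like modifier that is conjugated to newly made proteins, was 1053, 958 and 875 CPM with shBrca2-CM, 681, 473 and 526 CPM with shControl-CM and 1758 and 2316 CPM in the control. The 3 groups were separate, with a difference of 0.80 ± 0.15 between the media (adjusted p = 0.0151) and of -1.87 ± 0.19 and -1.08 ± 0.13 from the control (adjusted p = 0.000117 and 9.71e-10). Usp18, which removes ISG15 from proteins and damps the type I receptor, was 175, 175 and 181 CPM with shBrca2-CM, 118, 133 and 155 CPM with shControl-CM and 86 and 104 CPM in the control. Unlike Isg15, it was called above the control with both media, with 0.50 ± 0.18 for shControl-CM (adjusted p = 0.0573) and 0.90 ± 0.15 for shBrca2-CM (adjusted p = 2.26e-06). The shBrca2-CM libraries lay above the shControl-CM libraries for Usp18, but the difference of 0.42 ± 0.14 was not called (adjusted p = 0.208). Parp9, which acts with Dtx3l in ADP-ribose and ubiquitin signaling, was 47.7, 66 and 63.9 CPM, 50.6, 44.4 and 38 CPM and 52.3 and 57.6 CPM in the same order and was not called in any comparison. Trim30a, a TRIM protein, was 2.89, 4.98 and 1.78 CPM with shBrca2-CM, from 2, 4 and 2 counts, 1.28, 1.93 and 0.679 CPM with shControl-CM, from 2, 2 and 1 counts, and 4.34 and 9.46 CPM in the control. With shControl-CM it was called below the control (-2.43 ± 0.66), but at or under 3 counts in each shControl-CM library the size of this difference is uncertain. Parp12, Parp14 and Trim25 were not called in any comparison, Trim21 was called below the control with shBrca2-CM only, and Dtx3l was called above it with both media.

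Of the other induced genes, Sp100, a component of PML nuclear bodies, was called between the media. Sp100 was 39.1, 32.4 and 24.9 CPM with shBrca2-CM, 10.3, 8.70 and 12.9 CPM with shControl-CM and 29.7 and 35.7 CPM in the control. The shBrca2-CM libraries overlapped those of the control and lay above all shControl-CM libraries, with a log2 difference of 1.58 ± 0.31 between the media (adjusted p = 0.0189) and -1.61 ± 0.28 for shControl-CM against the control (adjusted p = 0.00223). Lgals3bp, a secreted glycoprotein that binds galectin-3, was 935, 938 and 948 CPM, 775, 605 and 723 CPM and 336 and 539 CPM in the same order. Lgals3bp did not overlap between the media and its adjusted p of 0.0997 was under 0.1, but its difference of 0.45 ± 0.12 was under the fold threshold of 0.5, so it was not called. It was called above the control with both media (0.67 ± 0.21 and 1.11 ± 0.15). Ifi44, a cytosolic protein, was 68, 64.7 and 28.4 CPM with shBrca2-CM, 30.8, 9.66 and 39.4 CPM with shControl-CM and 12.2 and 13.3 CPM in the control, with log2 differences of 1.09 ± 0.43 and 2.02 ± 0.25 from the control. Only the shBrca2-CM libraries lay above the control without overlap. The call for shControl-CM, whose libraries overlapped the control, was lost by DESeq2 (adjusted p = 0.163), with total counts as the scale, after thinning, and without either control library. Xaf1, which promotes cell death, was 2.89, 1.24 and 3.55 CPM with shBrca2-CM, 3.20, 0.966 and 0.679 CPM with shControl-CM and 4.52 and 4.30 CPM in the control. It had at most 5 counts in any library of the media and was not called. Ifi35, Ifi27, Helz2 and Epsti1 were each called in 1 comparison with the control. Epsti1 was at or under 3 counts in every library of the media, so the size of its difference is uncertain. Its call for shControl-CM was lost by DESeq2 and after thinning. Shisa5 and Tor3a were not called.

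The promoter motifs were also counted by call. Among members with a promoter window, the ISRE core was found in 11 of 16 called higher with shBrca2-CM than with shControl-CM (68.8%) and in 11 of 28 not called (39.3%). It was found in 12 of 22 members called lower with shControl-CM than in the control (54.5%) and in 2 of 7 called higher (28.6%). The GAS core was found in 3 of the 16 (18.8%) and in 9 of the 28 (32.1%). These shares are descriptions with no test, and the 2 copies of Ifit3 are both counted. All 11 called members with an ISRE core had it before the annotated start, while 16 of the 22 members with a core did.

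**Figure D4:**
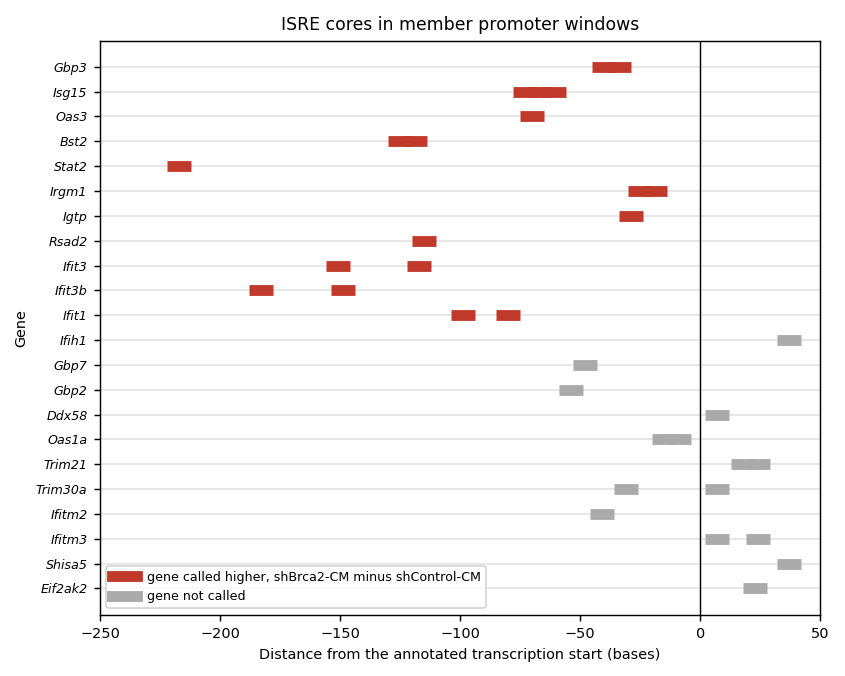
Position of each ISRE core (thick bars) in the promoter windows of the 22 members that hold one (rows), in bases from the annotated transcription start, with genes called higher with shBrca2-CM than with shControl-CM in red and others in grey. The red bars all lie before the start, up to 222 bases away, and some grey bars lie after it.

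Other genes of the pathway were taken from lists of textbook genes, for which the background shares of calls between the media are again 1.58% higher and 1.55% lower, so that few or no calls are a share near the background in lists of this size. Against the control 18.2 to 19.2% of all genes were called in each direction, so that some calls both ways are the background in these lists, and nothing is read from their counts. The interferon ligands listed were not analysed here. Of 5 interferon receptor genes tested between the media 0 were called in either direction by edgeR's quasi-likelihood test or by DESeq2, and 2 had an unadjusted p under 0.05, both lower with shBrca2-CM. Ifnar1, a chain of the type I receptor, was 14.5, 24.9 and 28.4 CPM with shBrca2-CM, 27.6, 31.9 and 28.5 CPM with shControl-CM and 12.3 and 15.3 CPM in the control, called above the control with both media (1.08 ± 0.26 and 0.77 ± 0.28). Of the kinases Jak1, Jak2 and Tyk2, 0 were called between the media by edgeR or DESeq2, and 0 had an unadjusted p under 0.05. Jak2, a kinase of the interferon-gamma receptor, was 130.2, 139 and 186 CPM with shBrca2-CM, 135, 151 and 149 CPM with shControl-CM and 50.2 and 43.9 CPM in the control, called above the control with both media (1.61 ± 0.17 and 1.71 ± 0.17).

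Of the listed sensing adaptors, kinases and IRFs, 10 were tested between the media and 0 were called by edgeR or DESeq2, with 1 at an unadjusted p under 0.05. Sting1, the adaptor of the DNA sensor cGAS, was 86.8, 109.5 and 124 CPM with shBrca2-CM, 91, 81.2 and 84.9 CPM with shControl-CM and 39.3 and 33.1 CPM in the control. Of the 12 genes tested for shControl-CM against the control, 25% were called higher and 16.7% lower, near the shares of all genes. Sting1, Ikbke, a kinase of IRF3 and IRF7, and Irf3 itself were called above the control with both media. Irf2, a repressor and competitor of IRF1, and Irf5 were called below it with both, and Traf3 was below and Cgas above with shBrca2-CM only. Of 6 feedback inhibitors, Socs3, which restrains receptors that signal through JAK kinases, was the only gene called between the media, and it was lower with shBrca2-CM. Socs3 was 72.3, 77.2 and 96.8 CPM with shBrca2-CM, 152, 145 and 183 CPM with shControl-CM and 38.6 and 41.5 CPM in the control (-0.92 ± 0.16, adjusted p = 0.0109). Socs1, the main inhibitor of interferon-gamma signaling, was called below the control with both media (-1.97 ± 0.29 and -1.87 ± 0.25), and so was Usp25, a deubiquitinase (-1.83 ± 0.48 and -0.97 ± 0.31).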

How the data were processed

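Stellate cell RNA was sequenced from the 3′ end by a variation of MARS-seq. The deposited counts per gene, not normalized, were made by the authors from reads aligned to mm10. The submitters' processing notes list cutadapt, STAR 2.4.2a, HTSeq and DESeq2, and whether molecular identifiers were collapsed is not given in the sources used here. 1 further column of counts, named like the control libraries (DMEM), matched no sample and was not used. For each comparison only its own groups entered edgeR 4.0.16 (R 4.3.3, TMM factors, genes with at least 10 counts, quasi-likelihood test, Benjamini-Hochberg adjustment), with the study's thresholds for calls (adjusted p 0.1, log2 fold change 0.5 either way, mean normalized count 5). DESeq2 1.42.0, other scalings and filters, thinning to 655996 counts, a replicate block and leaving out each library were alternatives. The code was tested on simulated data. The members and lists were chosen with earlier results of these data known. Each member called between the media was given in every library, as were, in each class, the 3 members with the largest difference between the media and the 2 with the largest in each comparison with the control, among members over the mean count threshold. Promoters were searched with Python 3.11.15. 1 listed gene of the pathway is not reported here.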

Additional observations from a re-analysis of the deposited data

How the results depend on the processing

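Between shBrca2-CM and shControl-CM, the 20 calls became 5 at an adjusted p under 0.05 with a log2 fold change over 1, and 5 to 25 with each library left out. For shBrca2-CM against the control the 36 calls became 19 at the stricter threshold. The median of the members for shControl-CM against the control ranged from -0.72 to -0.49 with a library left out. With total counts as the scale the median over all genes was 0.14 between the media and -0.21 for shControl-CM against the control, and relative to it the members' median was 0.59 and -0.39, against 0.58 and -0.39 with TMM. For shControl-CM against the control that difference of medians was -0.66 after thinning, with 55 members tested, and -0.69 without control replicate 1. Scaling by total counts gave 25 calls between the media, all 20 of the main calls among them, and 6 higher and 28 lower calls for shControl-CM against the control. Thinning each library to the same total of 655996 counts gave 18 calls between the media, of which 17 were among the 20, and it left the libraries' composition as it was, with 7.54 to 7.90% of counts in the 10 most abundant genes with shBrca2-CM and up to 12.2% with shControl-CM. For members given by their values, no difference that was called changed direction in these settings. Differences that were not called could change sign, as that of Irf7 for shBrca2-CM against the control did (-0.02 to 0.57 with a library left out). Same-numbered libraries of the media correlated at -0.036, 0.0051 and 0.13, so the numbers were not taken as pairs. With a replicate block, 19 members were called between the media, of which 18 were among the 20, 34 for shControl-CM and 32 for shBrca2-CM against the control. Genes with few counts, such as Mx1, Gbp7, Xaf1 and Trim30a, are limited by depth in the media, where libraries were shallower than in the control.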
